A study of Mus musculus with 20 samples.

Results

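Hox genes encode homeodomain transcription factors that give cells their position along the head-to-tail axis of the embryo. They lie in clusters named Hoxa, Hoxb, Hoxc and Hoxd, and the number in a gene's name is its paralogue group: low numbers lie at one end of each cluster and are expressed towards the head, high numbers at the other end and towards the tail. In the developing lung, Hox genes of the Hoxa and Hoxb clusters are expressed mainly in the mesenchyme, and Hoxa5 and Hoxb5 are known for roles in the formation and branching of the airways.

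The members described here are the 31 genes of the 4 clusters that had a probe set of their own on the array, of 12393 genes with such a probe set in all. A gene with several probe sets is represented by the one that was brightest on average over the 20 arrays. Hoxb8, Hoxd3 and Hoxd4 were measured only by probe sets that name several genes.

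Total RNA came from left lung lobes of embryos on the C57Bl6 background, with 1 animal per array and 5 arrays in each of 4 groups. Controls were labelled GR flox, meaning that the glucocorticoid receptor gene (GR, Nr3c1) carries recombination sites but stays active. Mutants were labelled GRCol1-Cre. In these, Cre recombinase was expressed from a bacterial artificial chromosome (BAC) that carries the Col1a2 locus, the gene of a fibrillar collagen chain. The design removes GR in mesenchymal cells and is meant to leave it in other cell types of the same lobe. Which cells kept GR was not measured here. Each genotype was taken at embryonic day E16.5 and at E18.5, shortly before birth. Values are GCRMA log2 values, so a difference of 1 is a factor of 2, and a value below 4 is called dim.

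As a check of the labels, the targeted gene Nr3c1 was at 8.58 to 9.15 in controls and 6.31 to 7.50 in mutants at E16.5, and at 9.02 to 9.57 and 7.56 to 8.05 at E18.5, so the genotypes did not overlap. All 9 mesenchyme markers looked at (among them Col1a1, Pdgfra and Tcf21) were above 4. One array stood apart: on a line through all tested genes from the E16.5 control mean (0) to the E18.5 control mean (1), E18.5 control 3 lay at 0.704 and the other E18.5 controls at 1.02 to 1.09, while the E18.5 mutants lay at 0.452 to 0.769. By Xist and Y-linked genes, 1 of 5 E16.5 controls, 5 of 5 E16.5 mutants, 3 of 5 E18.5 controls and 2 of 5 E18.5 mutants were female, so at E16.5 genotype and sex can hardly be told apart. A whole lobe was measured, so fewer cells of a type and less RNA per cell cannot be told apart either.

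Of the 31 members, 9 were above a log2 value of 4, and these were above 4 in all 20 arrays. They were Hoxa2, Hoxa3, Hoxa4 and Hoxa5 on chromosome 6, and Hoxb2, Hoxb3, Hoxb4, Hoxb5 and Hoxb6 on chromosome 11. By paralogue group, they made up 9 of the 12 members of groups 2 to 6, and within Hoxa and Hoxb 9 of 9. None of the 17 members of groups 7 to 13 was above 4, nor was either member of group 1 (Hoxb1 and Hoxd1). The 6 members of Hoxc on chromosome 15 and the 7 of Hoxd on chromosome 2 were dim throughout. The measured lung Hox genes therefore formed a single unbroken stretch in each of the Hoxa and Hoxb clusters, from group 2 to group 5 in Hoxa and from group 2 to group 6 in Hoxb. Hoxa6, next in line in Hoxa, was not analysed here.

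**Figure D1:**
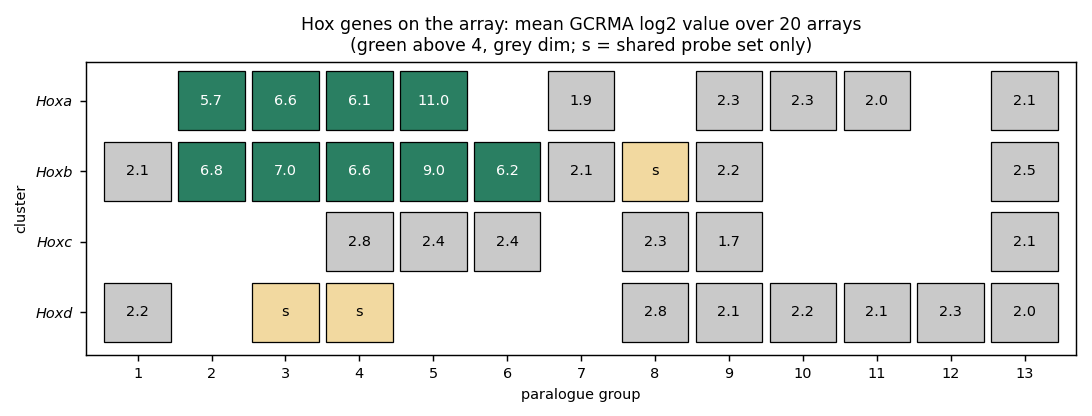
Map of the Hox genes on the array by cluster (rows) and paralogue group (columns), with the mean GCRMA log2 value over the 20 arrays in each box. Green boxes mark the 9 genes above 4, which fill groups 2 to 5 of Hoxa and 2 to 6 of Hoxb, grey boxes mark the 22 dim genes, and s marks a gene on a shared probe set only.

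The 22 dim members read between 1.66 and 3.43 over all arrays. Their signals came nearest to 4 in Hoxd8, at 3.43 in its highest array. In Hoxa the dim members Hoxa7, Hoxa9, Hoxa10, Hoxa11 and Hoxa13 stayed at or below 2.34, and in Hoxb the dim members Hoxb1, Hoxb7, Hoxb9 and Hoxb13 stayed at or below 2.50. On the other side of the threshold, the lowest value of any member above 4 was 4.81, for Hoxb6 in E18.5 control 1, so no member lay near 4. A dim value does not tell little RNA from probes that bind poorly, so values of different probe sets do not rank the genes by RNA level. The second probe sets of Hoxa3, Hoxa4 and Hoxb4 were dim as well, at 2.69 to 3.60, 3.03 to 3.43 and 2.88 to 3.33. When the dim members were tested too, 0 of 22 passed in any limma comparison after Benjamini-Hochberg adjustment, and 1 had an unadjusted p under 0.05, in the comparison of stages in mutants. The filter on dim genes was passed by 29.0% of the members and by 65.1% of all genes on the array.

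RefSeq promoter windows of the GRCm38.p6 build were given for 18 of the 31 members and for 4 of the 9 above 4, namely Hoxa2, Hoxa3, Hoxa5 and Hoxb4. The 250 bases before the start of Hoxa2, Hoxa5 and Hoxb4 are printed 5′ to 3′ because these genes are measured in the lung and lie in both active clusters. Capitals mark matches to a motif on either strand. CCAAT is the motif of the factor NF-Y. The TATA box was searched as TATAAA. A half-site of nuclear receptors was searched as AGGTCA. Joint binding of HOX and PBX proteins is known for TGATTNAT.
Hoxa2 (chr6:52164832-52165081, minus strand): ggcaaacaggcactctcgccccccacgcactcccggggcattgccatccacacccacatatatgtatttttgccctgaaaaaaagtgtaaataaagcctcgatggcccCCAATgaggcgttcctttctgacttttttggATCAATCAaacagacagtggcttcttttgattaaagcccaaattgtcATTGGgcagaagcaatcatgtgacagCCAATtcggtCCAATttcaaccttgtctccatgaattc
Hoxa5 (chr6:52204588-52204837, minus strand): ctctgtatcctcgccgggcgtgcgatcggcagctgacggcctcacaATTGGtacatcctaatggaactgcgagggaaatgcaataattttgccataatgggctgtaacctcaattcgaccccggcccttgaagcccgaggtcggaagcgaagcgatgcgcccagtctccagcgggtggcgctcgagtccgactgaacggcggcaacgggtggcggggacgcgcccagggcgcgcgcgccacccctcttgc
Hoxb4 (chr11:96318017-96318266, plus strand): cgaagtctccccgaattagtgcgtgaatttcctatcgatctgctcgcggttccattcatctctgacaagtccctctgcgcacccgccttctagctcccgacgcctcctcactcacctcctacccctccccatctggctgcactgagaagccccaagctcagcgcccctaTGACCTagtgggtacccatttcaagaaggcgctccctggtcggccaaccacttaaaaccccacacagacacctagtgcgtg
The Hoxa2 window held 4 CCAAT matches, at 142, 64, 38 and 28 bases before the start, and 1 match to TGATTNAT at 111 bases. In Hoxa5 there was 1 CCAAT match, at 204 bases, and in Hoxb4 1 AGGTCA match, at 81 bases. No pair of these matches overlapped. The window of Hoxa3 lies at an upstream start of that gene and held none of the motifs. The palindromic glucocorticoid response element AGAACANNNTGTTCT was not found in the windows of the 4 genes. Among all 32851 RefSeq windows of this length, 33.8% held the NF-Y motif, 12.4% the TATA box, 14.0% the nuclear receptor half-site, 2.82% the motif of HOX with PBX and 0.00913% the glucocorticoid element. These matches describe the letters of the windows; binding was not measured.

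Between E16.5 and E18.5, Hox RNA fell in the control lung. Of the 9 members above 4, 8 fell (limma, adjusted p under 0.05), where 35.5% of the 8068 genes tested fell. The median of the 9 log2 differences was -0.85, beside -0.01 for all genes tested. In the same 8 genes every E18.5 control lay below every E16.5 control, which was so for 25.3% of all genes. The differences ran from -0.77 to -1.69 in Hoxb and from -0.19 to -0.98 in Hoxa, and the contrast between the clusters was not tested.

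In mutants at E18.5 the same 9 genes were higher than in controls. All 9 passed, where 18.6% of the genes tested were called higher, and the median difference was 0.51, beside 0.03 for all genes. In 5 of them (Hoxa2, Hoxa4, Hoxb3, Hoxb5 and Hoxb6) every mutant lay above every control, as in 8.27% of all genes, and in the other 4 genes 4 of 5 mutants did. The mutant mean at E18.5 lay between the control means of the 2 stages in 8 of 9 genes, Hoxa3 being above both. The share of all genes with such a mean was not computed. On the line through all tested genes every E18.5 mutant also lay between the control means, at 0.452 to 0.769. The fall with stage in controls and the difference between genotypes at E18.5 share the E18.5 control arrays, so the gene-by-gene values are given side by side.

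**Figure D2:**
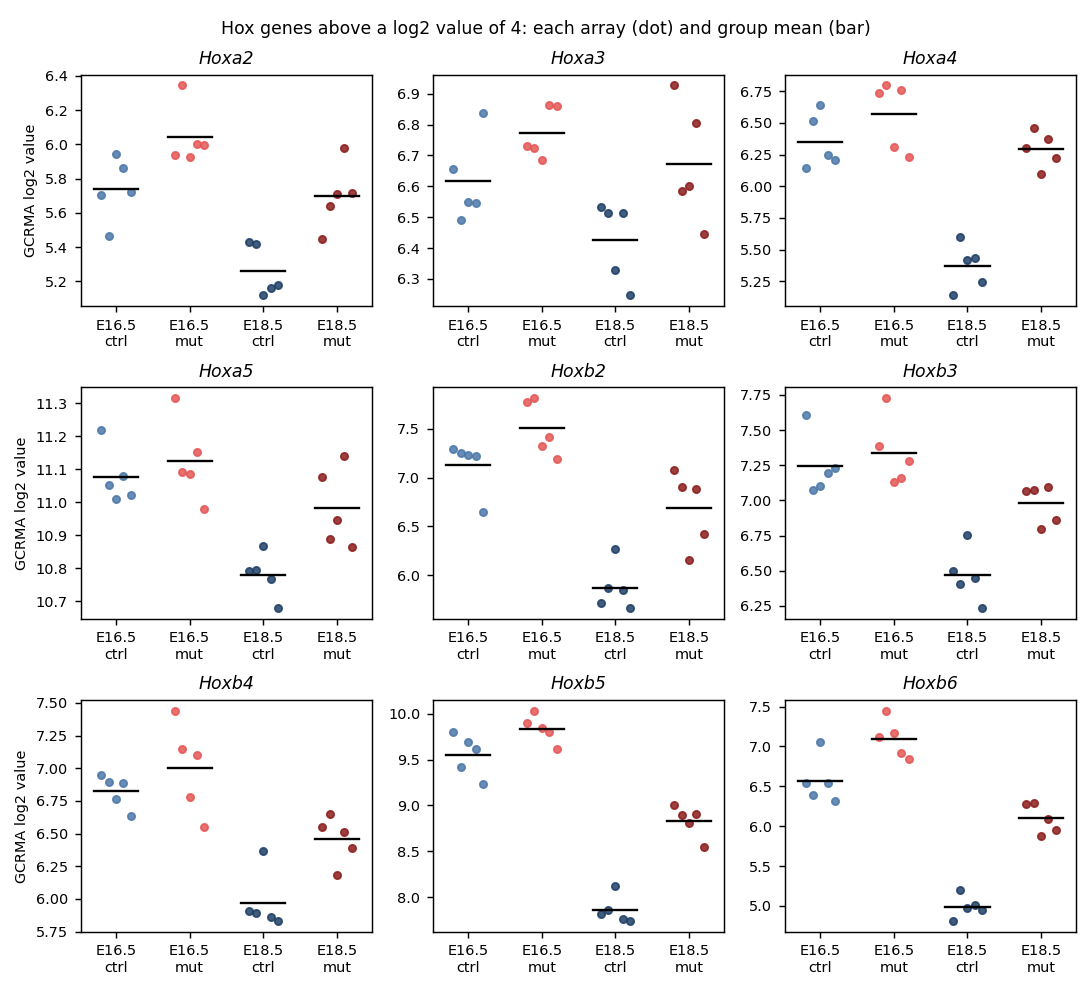
GCRMA log2 value (vertical axis, scaled per gene) of the 9 Hox genes above 4 in each of the 20 arrays (dots) by group, with the group mean as a bar; ctrl is control and mut is mutant. E18.5 controls form the lowest group in all 9 genes, and in Hoxa2, Hoxa4, Hoxb3, Hoxb5 and Hoxb6 they lie below every other array.

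Hoxb5, which takes part in the branching of the airways, showed the largest fall. In controls it read 9.80, 9.42, 9.69, 9.62 and 9.23 at E16.5 and 7.82, 7.87, 8.13, 7.76 and 7.74 at E18.5. Mutants read 9.90, 10.03, 9.84, 9.80 and 9.61 at E16.5 and 9.002, 8.90, 8.81, 8.91 and 8.55 at E18.5. The stages did not overlap in either genotype, and at E18.5 all 5 mutants were above the highest control. The control mean went from 9.55 ± 0.23 (SD, n = 5) to 7.86 ± 0.15, a fall of 3.22-fold (log2 difference -1.69, SE 0.11, limma adjusted p = 5.27e-10). At E18.5 the mutants exceeded the controls by 0.97 (SE 0.11, adjusted p = 3.79e-06), or 1.96-fold.

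Hoxb6, the highest-numbered Hox gene above 4, had the largest difference between genotypes. Its control values were 6.54, 6.39, 7.06, 6.55 and 6.32 at E16.5 and 4.81, 5.20, 4.98, 5.01 and 4.95 at E18.5. Its mutant values were 7.12, 7.45, 7.16, 6.91 and 6.84 and 6.28, 6.29, 5.88, 6.08 and 5.96. Every E18.5 mutant again lay above every E18.5 control and below every E16.5 mutant. Controls fell 2.99-fold with stage (-1.58, SE 0.13, limma adjusted p = 8.18e-09). The E18.5 mutants were 2.16-fold above the controls (1.11, SE 0.13, adjusted p = 7.54e-06). Its probe set is of a kind that can read several transcripts of the gene.

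Hoxb2, a gene of hindbrain patterning that is also expressed in lung mesenchyme, read 7.29, 7.25, 7.23, 7.22 and 6.65 in E16.5 controls and 5.71, 5.87, 6.27, 5.85 and 5.66 in E18.5 controls. In mutants it read 7.77, 7.82, 7.33, 7.42 and 7.19 at E16.5 and 7.08, 6.90, 6.16, 6.88 and 6.42 at E18.5. E16.5 control 5 was the low array of its group, and at E18.5 control 3 was the high one, above mutant 3. The fall in controls was 2.39-fold (-1.26, SE 0.18, limma adjusted p = 4.18e-06). At E18.5 the genotypes differed by 0.82 (SE 0.18, adjusted p = 0.00182), and without control 3 by 0.92, with no overlap.

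Hoxb3 and Hoxb4, known for their roles in blood stem cells, changed by less. Hoxb3 read 7.61, 7.07, 7.10, 7.19 and 7.23 in E16.5 controls and 6.50, 6.41, 6.76, 6.45 and 6.23 in E18.5 controls. In mutants Hoxb3 read 7.39, 7.73, 7.13, 7.16 and 7.28 at E16.5 and 7.07, 7.08, 6.80, 7.10 and 6.86 at E18.5. The highest E18.5 control, control 3, lay just under the lowest E18.5 mutant. Controls fell by 0.77 (SE 0.12, limma adjusted p = 1.63e-05), and at E18.5 mutants were higher by 0.51 (SE 0.12, adjusted p = 0.00375).

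Hoxb4 read 6.95, 6.89, 6.77, 6.89 and 6.63 in E16.5 controls and 5.91, 5.89, 6.37, 5.86 and 5.83 in E18.5 controls. Its mutant arrays read 7.44, 7.14, 6.78, 7.10 and 6.55 at E16.5 and 6.55, 6.65, 6.18, 6.51 and 6.39 at E18.5. E18.5 control 3 stood well above the other controls of its group and inside the range of the mutants. Controls fell by 0.85 (SE 0.14, limma adjusted p = 2.57e-05). The E18.5 genotypes differed by 0.49 (SE 0.14, adjusted p = 0.0125), or by 0.58 and without overlap when control 3 was left out.

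In the Hoxa cluster, Hoxa4 changed most. Its control arrays read 6.14, 6.51, 6.64, 6.25 and 6.21 at E16.5 and 5.14, 5.60, 5.42, 5.44 and 5.24 at E18.5. Its mutant arrays read 6.74, 6.80, 6.31, 6.76 and 6.23 at E16.5 and 6.30, 6.46, 6.10, 6.37 and 6.23 at E18.5. The E18.5 controls lay below all other arrays, while the mutants of the 2 stages overlapped. Controls fell 1.97-fold (-0.98, SE 0.13, limma adjusted p = 1.41e-06), and E18.5 mutants were 1.90-fold above controls (0.92, SE 0.13, adjusted p = 3.31e-05). The dim second probe set of Hoxa4 did not show these differences, at -0.11 between control stages and -0.01 between E18.5 genotypes.

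Hoxa2, which patterns the second branchial arch, read 5.71, 5.46, 5.94, 5.86 and 5.72 in E16.5 controls and 5.43, 5.42, 5.12, 5.16 and 5.18 in E18.5 controls. Mutants read 5.94, 6.35, 5.92, 5.999 and 5.999 at E16.5 and 5.45, 5.64, 5.71, 5.98 and 5.72 at E18.5. E16.5 mutant 2 was the high array of its group, and the lowest E18.5 mutant lay only just above the highest E18.5 control. The fall in controls was 0.48 (log2 difference -0.48, SE 0.11, limma adjusted p = 0.000658). At E18.5 mutants were higher by 0.44 (SE 0.11, adjusted p = 0.00478).

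Hoxa5 is the Hox gene best known in the lung, where its loss in mice disturbs the trachea and the maturation of the airspaces. It read 11.22, 11.05, 11.01, 11.08 and 11.02 in E16.5 controls and 10.79, 10.79, 10.87, 10.77 and 10.68 in E18.5 controls. Mutants read 11.32, 11.09, 11.09, 11.15 and 10.98 at E16.5 and 11.08, 10.89, 10.95, 11.14 and 10.87 at E18.5. Controls of the 2 stages did not overlap, but E18.5 control 3 reached just above the lowest E18.5 mutant. Its fall in controls left 81.4% of the E16.5 level (-0.30, SE 0.07, limma adjusted p = 0.000993). The E18.5 genotypes differed by 0.20 (SE 0.07, adjusted p = 0.0313), and the call was lost without E18.5 control 1, 2, 4 or 5 or mutant 1 or 4, at 0.16 to 0.21.

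Hoxa3, needed for the thymus and other pharyngeal organs, had the smallest differences between stages. Its values were 6.66, 6.49, 6.55, 6.55 and 6.84 in E16.5 controls and 6.53, 6.51, 6.33, 6.52 and 6.25 in E18.5 controls. Mutants read 6.73, 6.73, 6.69, 6.86 and 6.86 at E16.5 and 6.93, 6.58, 6.60, 6.80 and 6.45 at E18.5. The groups overlapped in every comparison. The difference between control stages was -0.19 (SE 0.09), which missed the threshold (limma adjusted p = 0.0705), and passed without E18.5 mutant 1, when the pooled spread was smaller (adjusted p = 0.0491). Mutants exceeded controls at E18.5 by 0.25 (SE 0.09, adjusted p = 0.0424), and this call was lost without E18.5 control 3 or 5 or mutant 1 or 4, at 0.18 to 0.22. Its probe set is of a kind whose probes can match more than 1 gene.

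In mutants the fall between the stages was also seen, with smaller differences. Here 6 of 9 genes fell, where 27.6% of all genes did, and the median difference was -0.36, beside 0.00 for all genes. Hoxb5 fell by 1.00 (SE 0.11), Hoxb6 by 1.00 (SE 0.13), Hoxb2 by 0.82 (SE 0.18), Hoxb4 by 0.55 (SE 0.14), Hoxb3 by 0.36 (SE 0.12) and Hoxa2 by 0.34 (SE 0.11), with limma adjusted p between 8.97e-07 and 0.0180. In Hoxb2, Hoxb3, Hoxb5 and Hoxb6 the stages did not overlap, as in 20.3% of all genes. The differences of Hoxa4 (-0.28, adjusted p = 0.0690), Hoxa5 (-0.14, adjusted p = 0.0954) and Hoxa3 (-0.10, adjusted p = 0.358) did not pass. Hoxb3 lost its call without E16.5 mutant 2 (-0.26) or E18.5 mutant 3 (-0.31). Hoxa4 gained one without E16.5 mutant 3 or 5 (-0.34 and -0.36), and Hoxa5 without E16.5 mutant 5 or E18.5 mutant 4 (both -0.18).

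The change with stage in mutants was 28.3% of that in controls for Hoxa4 and 71.3% for Hoxa2, the lowest and the highest of the 9 genes, with a median of 59.5%. A partial change was general: over all tested genes the E18.5 mutants lay at 0.452 to 0.769 on the line between the control stages. The E16.5 mutants lay at -0.127 to 0.0874 on that line. Genes that fell more in controls also fell more in mutants, with a Pearson correlation of 0.942 and a Spearman correlation of 0.900 across the 9 genes. These 2 sets of differences share no arrays, but the genes share their tissue and are not independent replicates. Hoxa4 stood off this relation: it fell by 0.98 in controls and by 0.28 in mutants. The percentages and correlations were not computed gene by gene over all genes.

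**Figure D3:**
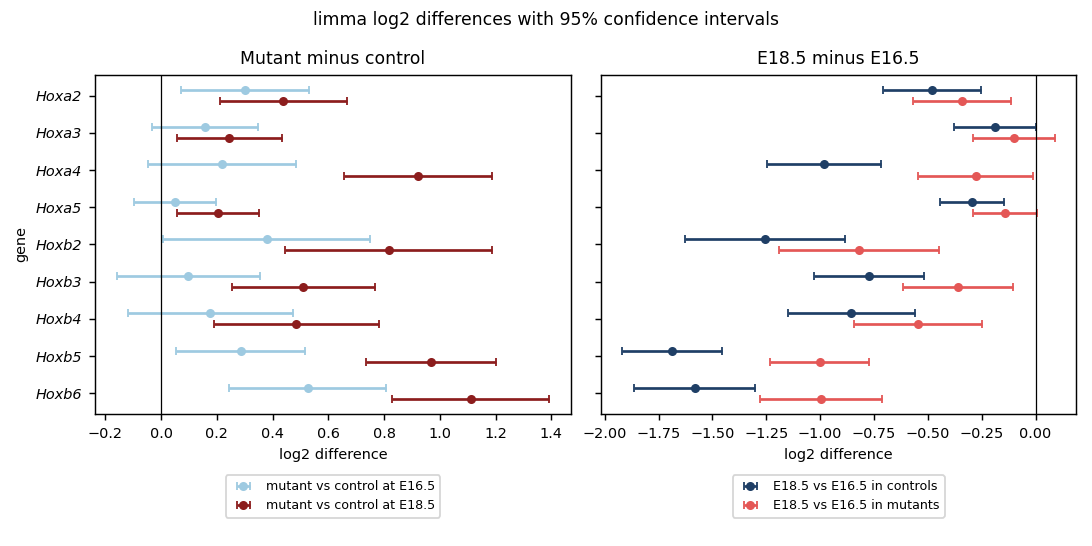
Log2 differences of the 9 Hox genes with 95% confidence intervals from limma, on the left between mutants and controls at each stage and on the right between E18.5 and E16.5 in each genotype. All differences on the left are above 0 and all on the right below 0, with the E18.5 genotype difference largest in Hoxb6, at 1.11, and the fall in controls largest in Hoxb5, at -1.69.

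At E16.5 no Hox gene passed the test between genotypes. All 9 differences were above 0, between 0.05 and 0.53 with a median of 0.22, beside 0.01 for all genes. Few genes of any kind differed at this stage: 0.248% of the genes tested were called, and 0.0496% were called higher in mutants. By limma without adjustment, 4 of the 9 (Hoxa2, Hoxb2, Hoxb5 and Hoxb6) had p under 0.05, as had 356 of the 8068 genes. The largest difference was in Hoxb6, at 0.53 (SE 0.13, limma adjusted p = 0.226), where 3 of 5 mutants lay above all controls. It passed without E16.5 control 3, the highest control, at 0.65 (adjusted p = 0.0198). Hoxb3 differed by 0.10, and by -0.000227 without E16.5 mutant 2, so even its direction rests on that array.

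Whether the genotype difference was larger at E18.5 than at E16.5 was tested as an interaction. The interaction was above 0 in all 9 genes, with a median of 0.41, beside 0.02 for all genes. It passed in Hoxa4 (0.70, SE 0.18, limma adjusted p = 0.0213) and Hoxb5 (0.68, SE 0.16, adjusted p = 0.0127), that is in 2 of 9 genes, where 3.62% of all genes were called in that direction. Hoxb6 (0.59, 95% interval 0.19 to 0.98, adjusted p = 0.0616) and Hoxb3 (0.41, 95% interval 0.05 to 0.78, adjusted p = 0.144) did not pass. Hoxb6 passed without E16.5 control 5, E16.5 mutant 2, or E18.5 mutant 3 or 5, at 0.62 to 0.67. Averaged with its dim second probe set, Hoxa4 had an interaction of 0.32 and lost the call (adjusted p = 0.0759). With sex as a covariate both calls were lost, although the values stayed close: Hoxa4 had 0.65 (adjusted p = 0.0886) and Hoxb5 0.55 (adjusted p = 0.0853). The E18.5 genotype difference with that covariate still passed in 9 of 9 genes.

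Averaged over the 9 genes, each array gave one Hox level. Among the E16.5 arrays, controls spanned 7.32 to 7.56 and mutants 7.51 to 7.90, and these ranges overlapped. Among the E18.5 arrays, controls spanned 6.42 to 6.69 and mutants 7.02 to 7.31, with a gap between the genotypes. E18.5 control 3 was the highest control at 6.69, and it was the highest of its group in 5 of the 9 genes (Hoxa5, Hoxb2, Hoxb3, Hoxb4 and Hoxb5). Without it, 8 of 9 genes passed at E18.5 and 8 of 9 had no overlap, Hoxa3 being the exception in both counts. Genes in general also separated more without that array: 22.9% of all genes were then called higher in mutants and 20.5% had all mutants above all controls.

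Other cell markers were followed beside the Hox level. For the counts below, 35.3% of all genes tested rose and 35.5% fell with stage in controls. In E18.5 mutants 18.6% of all genes were higher and 15.9% lower. The mean over the 9 mesenchyme markers was highest in the group where the Hox level was lowest: controls averaged 11.43 ± 0.14 (SD, n = 5) at E16.5 and 11.69 ± 0.035 at E18.5, and E18.5 mutants 11.49 ± 0.085. With stage in controls 4 of these 9 rose and 0 fell, and at E18.5 2 were lower in mutants, Tcf21 (-0.75) and Pdgfra (-0.52). The mean over the 7 cartilage markers followed the order of the Hox level. Controls spanned 5.05 to 5.63 at E16.5 and 3.51 to 4.27 at E18.5, and E18.5 mutants 4.28 to 5.05. Singly, the group means of Col2a1, Col9a1 and Col9a3 followed that order. Those of Cnmd (2.41 in both E18.5 genotypes) and Matn4 (9.01 in E18.5 controls, 7.42 in E16.5 controls) did not. Of the 5 cartilage markers tested, Col2a1, Col9a1, Col9a3 and Cnmd fell with stage in controls and Matn4 rose, while Col9a1 and Col9a3 were higher in E18.5 mutants. Col2a1, Col9a3 and Cnmd were dim in E18.5 controls, which limits the size of these differences. Acan and Matn1, which define mature cartilage, were dim in all groups. E18.5 control 3 had the highest cartilage mean of its group, at 4.27. Markers of endothelium ran against the Hox level: averaged over 5 genes, controls spanned 8.77 to 9.30 at E16.5 and 9.68 to 10.03 at E18.5, and E18.5 mutants 9.39 to 9.65. All 5 rose with stage in controls, and Pecam1 (-0.60), Cdh5 (-0.49) and Kdr (-0.47) were lower in E18.5 mutants. Mesothelium did likewise: averaged over 3 genes, controls spanned 4.88 to 6.24 at E16.5 and 7.91 to 8.06 at E18.5, and E18.5 mutants 6.85 to 7.46, and both genes tested, Msln and Upk3b, rose with stage and were lower in mutants. Of the epithelial markers 5 of 6 rose with stage in controls and Epcam fell, while Epcam was higher and Krt8 lower in E18.5 mutants. The blood markers Ptprc (2.47), Cd52 and Alas2 rose with stage in controls and the embryonic globin genes Hbb-y and Hba-x fell; Alas2 and Hbb-y were lower in E18.5 mutants. All 5 heart muscle markers tested rose with stage in controls, and Myl2 was higher in E18.5 mutants. The Myl2 mean was above 4 only in that group, at 4.69, which limits what both of its differences show. It was dim in E16.5 controls (2.08), E16.5 mutants (2.31) and E18.5 controls (3.22). Of the neuronal markers 4 were dim, and Stmn2, the one tested, rose with stage in controls and was lower in E18.5 mutants. The part of cartilage or of any other tissue in the Hox differences was not tested.

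**Figure D4:**
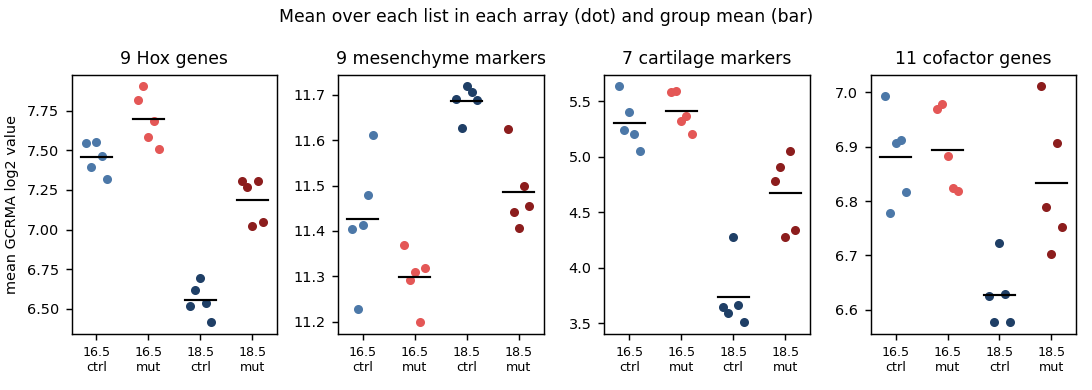
Mean GCRMA log2 value per array (dots) with the group mean (bar) for the 9 Hox genes, 9 mesenchyme markers, 7 cartilage markers and 11 cofactor genes, each panel with its own vertical scale. Hox, cartilage and cofactor means are lowest in E18.5 controls, whereas the mesenchyme marker mean is highest there.

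HOX proteins bind DNA together with homeodomain proteins of the TALE class, the PBX, MEIS and PKNOX proteins, and the related TGIF repressors compete for similar sites. Of 12 such genes listed, with the PBX-binding protein gene Pbxip1 among them, 11 were on the array and 8 were above the filter. In controls 6 of 8 fell with stage and 1 rose, with a median of -0.39, beside -0.01 for all genes, of which 35.5% fell. The falls were Tgif2 (-1.30, SE 0.14), Pknox1 (-0.69, SE 0.12), Tgif1 (-0.64, SE 0.19), Meis2 (-0.48, SE 0.10), Meis1 and Pbx3, and Pbxip1 rose by 0.80 (SE 0.09). At E18.5, 3 of 8 were higher in mutants and 0 lower, with a median of 0.30, beside 0.03 for all genes, of which 18.6% were higher. These were Tgif2 (0.82, SE 0.14), Pbx3 (0.41, SE 0.10) and Meis2 (0.39, SE 0.10). Tgif2 also passed as an interaction, at 0.70 (SE 0.20, limma adjusted p = 0.0338). The cofactors Meis3, Pbx4 and Pknox2 were dim.

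Hox clusters are kept silent by Polycomb complexes and kept active by trithorax proteins. Tested were 24 regulators of Hox clusters, genes of these complexes and others such as Ctcf. Of these, 12 fell and 4 rose with stage in controls, where 35.5% of all genes tested fell and 35.3% rose. In E18.5 mutants 11 of the 24 (45.8%) were higher and 1 lower, where 18.6% of all genes were higher and 15.9% lower. The medians were -0.21 with stage in controls, beside -0.01 for all genes, and 0.15 in E18.5 mutants, beside 0.03. The largest changes were in Ezh2, the methyltransferase of the Polycomb repressive complex in dividing cells, which fell by 1.70 (SE 0.13) in controls and was 0.80 higher (SE 0.13) in E18.5 mutants. Cbx2, a reader of the Polycomb mark, fell by 1.56 (SE 0.14) and was 0.75 higher (SE 0.14). Ezh1, the related enzyme of resting cells, went the other way: it rose by 1.19 (SE 0.15) with stage and was 0.68 lower in mutants (log2 difference -0.68, SE 0.15). The interaction passed in Ezh2 (0.75, SE 0.18) and Ezh1 (-0.77, SE 0.21). In mutants 12 of the 24 fell with stage and 4 rose, where 27.6% of all genes fell and 28.7% rose.

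Retinoic acid and CDX factors switch on Hox genes in the embryo. Of 14 genes on the array that were listed as acting upstream of Hox genes, 9 were dim, among them Cdx1, Cdx2 and Cdx4. The other 5 were tested. The retinoic acid receptor gene Rarb fell with stage by 1.36 (SE 0.25) in controls and by 1.23 (SE 0.25) in mutants, and Rarg was lower in E18.5 mutants (-0.24, SE 0.09, limma adjusted p = 0.0365). No other gene of this list passed in any comparison.

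Other homeobox and T-box genes of the mesenchyme did not move as one group. Of 12 tested, 4 were higher and 4 lower in E18.5 mutants, where 18.6% of all genes were higher and 15.9% lower, with a median of -0.02, beside 0.03 for all genes. The homeobox genes Prrx2 (1.38, SE 0.27), Prrx1 (1.22, SE 0.13) and Meox2 (0.40, SE 0.09) and the forkhead gene Foxf2 (0.56, SE 0.09) were higher, and Prrx2 was dim in E18.5 controls. Tcf21 (-0.75, SE 0.09), Meox1 (-0.53, SE 0.11), Tbx3 (-0.40, SE 0.14) and Tbx2 (-0.29, SE 0.09) were lower. In controls 4 of the 12 rose with stage and 2 fell, where 35.3% of all genes rose and 35.5% fell. None of the 9 Hox genes above 4 rose. At E16.5 only Prrx1 of the 12 was called, higher in mutants by 0.73 (SE 0.13, limma adjusted p = 0.0118). Of all genes tested 0.0496% were called higher there.

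Genes next to the clusters were followed because neighbours on a chromosome can share regulation. The 5 nearest measured genes on each side of each cluster gave 40 genes, of which 27 were tested. In controls 11 of the 27 (40.7%) fell with stage and 7 (25.9%) rose, near the 35.5% and 35.3% of all genes. At E18.5, 5 of the 27 were higher in mutants, as were 18.6% of all genes, and 1 was lower. Of all genes 15.9% were lower there. As a group the neighbours were thus called higher in mutants about as often as genes elsewhere, and lower less often. That contrast was not tested, and the genes named here are examples. Beside Hoxb, the heterochromatin gene Cbx1 fell by 0.96 (SE 0.09) with stage and was 0.52 higher (SE 0.09) in E18.5 mutants, and Atp5g1, a subunit of ATP synthase, fell by 0.84 (SE 0.12). Gm11517 and Nfe2l1, on the same side as Cbx1, rose with stage by 0.30 (SE 0.12) and 0.19 (SE 0.06). Beside the dim Hoxc cluster, Cbx5, another heterochromatin gene, fell by 1.48 (SE 0.15) with stage and was 0.44 higher (SE 0.15) in E18.5 mutants. Beside Hoxa, Hnrnpa2b1 fell by 0.70 (SE 0.09) and was higher in E18.5 mutants by 0.31 (SE 0.09), whereas Skap2, Tax1bp1 and Hibadh rose with stage. Tril, beyond the high-numbered end of Hoxa, was 0.68 higher (SE 0.12) in E18.5 mutants. The homeobox genes Evx1 and Evx2, which adjoin Hoxa13 and Hoxd13, were dim.

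**Figure D5:**
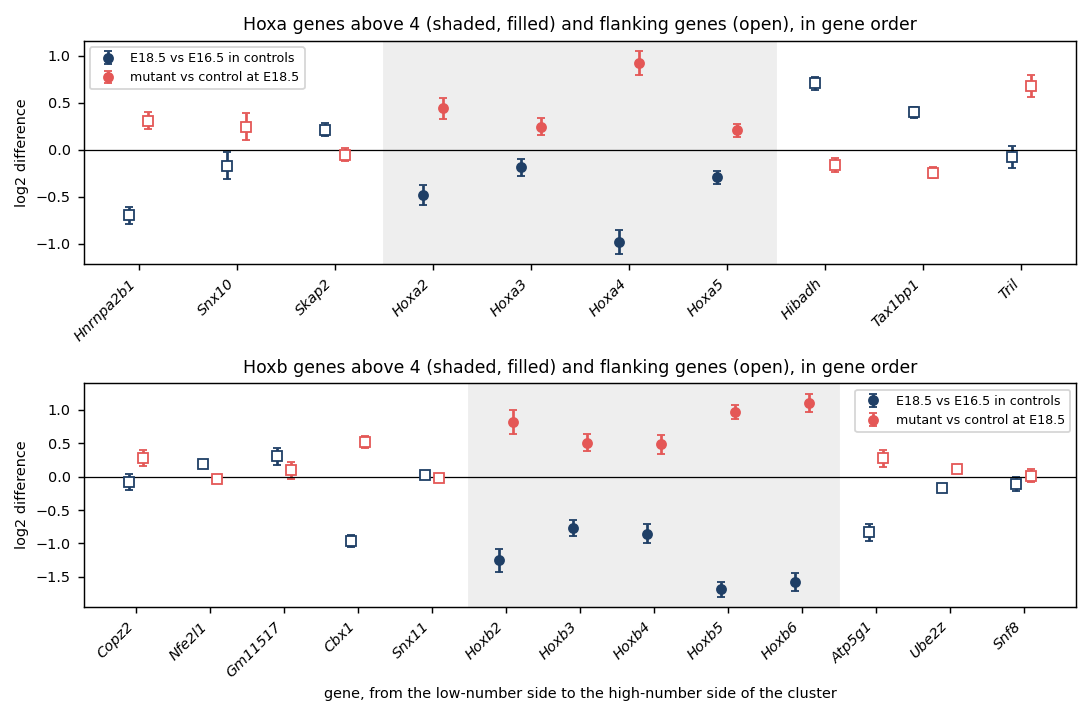
Log2 differences with their standard errors for the Hoxa genes (upper panel) and Hoxb genes (lower panel) above 4 and for the flanking genes tested, in gene order, for E18.5 against E16.5 in controls and for mutant against control at E18.5. Within the shaded clusters all stage differences are below 0 and all genotype differences above 0, while flanking genes lie on both sides of 0.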

How the data were processed

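Affymetrix Mouse430A_2 arrays measured RNA from 20 left lung lobes, 1 animal each, in 4 groups of 5. The authors deposited GCRMA log2 values, per the submitters' processing notes, with the version of GCRMA not given in the sources used. Array medians were 5.70 to 5.87, and precision is limited by 5 arrays per group.

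Of 22690 probe sets, 20380 named 1 gene by the platform annotation, 691 several and 1555 none, and 64 were controls; the brightest stood for each of 12393 genes. The 8068 genes with log2 above 4 in at least 5 of 20 arrays were fitted with limma 3.58.1 (lmFit, eBayes) in R 4.3.3 as 4 group means, two-sided, with Benjamini-Hochberg adjustment over all genes tested and a threshold of 0.05. Errors of differences are limma standard errors, and errors of group means are SDs. On simulated data for the E18.5 genotype comparison, with 200 of 8068 genes changed, 92% of changes of log2 1 and 59.5% of changes of 0.5 were recovered. In the real comparison 2784 genes were called. The adjustment depends on how many genes change, so these rates need not hold for the real data.

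Members and gene lists were chosen with earlier results of these data known. All called Hox genes were named with every array's value, and of other lists the called genes with the largest changes. Alternatives were other filters, scalings, probe-set summaries and variance models, sex, the replicate number as a block, a fold threshold and leaving out each array. Promoters came from RefSeq, and figures from matplotlib 3.10.9.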

Additional observations from a re-analysis of the deposited data

Results flagged for a closer look

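In 3 of the 36 combinations of a Hox gene and a group, 1 array lay far from the other 4, with a gap to the nearest that exceeded Dixon's critical share of the group's range (0.71 for 5 arrays); chance gives about 1 such case in 20 groups. Hoxa2 in E16.5 mutant 2 was high, at 6.346. Hoxb2 in E16.5 control 5 was low, at 6.651, and this array lay at 0.211 on the line between the control stages, above the other E16.5 controls. Hoxb4 in E18.5 control 3 was high, at 6.367, and this is the array at 0.704 on that line.

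For 2 genes the genotype difference itself changed with stage, by limma's test of the interaction. The E18.5 difference minus the E16.5 difference was 0.7036 for Hoxa4 and 0.6835 for Hoxb5. Neither passed with sex as a covariate.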

How the results depend on the processing

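The 45 differences of the 9 Hox genes were recomputed under 1341 alternatives in all, of which 1288 kept direction and side of the threshold, 30 lost a call, 21 gained one and 2 turned the sign: Hoxb3 between genotypes at E16.5 without E16.5 mutant 2 (-0.000227, in a range up to 0.19 over the arrays left out) and the interaction of Hoxa3 with the mean of all its probe sets (-0.00482). Many of these alternatives could change a call but not the difference itself, so their direction was fixed in advance. Such were the filters, the variance models, the replicate block, the fold threshold and leaving out an array of a group not compared. The count of alternatives that kept direction is thus no measure of how firm the directions are. With a call requiring 1.5-fold or more, 4 genes passed between genotypes at E18.5 and 3 between stages in mutants. The share of all genes under that rule was not computed. The interaction passed in 1 gene with the mean of all probe sets, where Hoxa4 had 0.32 (limma adjusted p = 0.0759), and in 0 with sex as a covariate. Leaving out 1 array at a time gave 0 to 1 called genes between genotypes at E16.5 (1 without E16.5 control replicate 3). At E18.5 it gave 7 to 9, between stages 8 to 9 in controls and 5 to 8 in mutants, and for the interaction 2 to 3. Calls over all genes moved too. Between genotypes at E18.5 there were 2784 with every array, 2197 without E18.5 control 1 and 3355 without E18.5 control 3. Of the 5 pairs of same-numbered arrays, 4 deviated together (correlation over 0.1) between genotypes at E16.5, 1 at E18.5, 2 between stages in controls and 3 in mutants, and 7, 0, 4 and 6 of 10 arrays correlated best with their own number. As no comparison had all 5 pairs over 0.1, the pairing was not used in the fits reported. With the replicate number as a block, 0, 9, 8, 8 and 2 genes were called in these comparisons, Hoxa4 (-0.28, adjusted p = 0.0415) and Hoxa5 (-0.14, adjusted p = 0.0451) being the added ones in mutants; the block changed no other call. Quantile normalization gave 9 in controls, 8 in mutants and 3 for the interaction, and moved the median of all genes in controls from -0.01 to -0.10. Hoxa3 at E18.5 lost its call with only the arrays compared (adjusted p = 0.0928), no filter (0.0517), the mean of all probe sets (0.196) and a variance trend (0.0604), and Hoxa5 with only the arrays compared (0.0541). The causes were not tested. Signal over background limits the 22 dim members, for which no change could be read.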
